A study of Homo sapiens with 6 samples.

Results

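The transcripts of CDK7 and of the other subunits of TFIIH were followed in 2 Ewing sarcoma cell lines treated with THZ1. The 10 genes were taken by symbol from the 27420 genes of the deposited table: CDK7, CCNH and MNAT1, which encode the 3 subunits of the CDK-activating kinase, and ERCC3, ERCC2, GTF2H1, GTF2H2, GTF2H3, GTF2H4 and GTF2H5, which encode the 7 subunits of the core. Each symbol was listed once, and all 10 were above 1 FPKM in both DMSO libraries.

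TFIIH is a general transcription factor that joins RNA polymerase II at promoters. Its core opens the DNA around the start site, and its kinase, CDK7 bound to cyclin H and MAT1, phosphorylates the C-terminal domain of the polymerase so that transcription can proceed. The same core opens DNA around lesions in nucleotide excision repair, and the kinase, free of the core, activates the kinases that drive the cell cycle.

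RNA was sequenced from A673 and SKNMC, established Ewing sarcoma cell lines, kept for 6 h in THZ1 at 50 nM, in THZ1 at 200 nM or in DMSO, its vehicle. THZ1 is a covalent inhibitor of CDK7, so the treated libraries read the transcript of the drug's own target. The low and the high dose were chosen by the study for their weaker and stronger effect on phosphorylation of the polymerase. Each of the 6 conditions had 1 library, so the spread between replicate cultures is unknown and a difference within a line is a description of its libraries. Changes shared by both lines were tested with limma, with the cell line as a block.

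Levels are given in FPKM, fragments counted per length of transcript and per mapped library size, which can be compared between genes since it is scaled to length. A log2 fold change is log2 of the ratio of FPKM + 1, which understates the change of low genes. The members were read beside the active genes, those above 1 FPKM in the DMSO library of the line, 11077 in A673 and 11896 in SKNMC. Against DMSO, the active genes of A673 stood at a median log2 change of -0.27 at the low dose and -0.40 at the high dose, and those of SKNMC had -0.32 and -0.55. FPKM is relative to the library, so a loss of RNA per cell that all genes share cannot be seen in it. Directions were also read under 3 other scalings. These set each library to a common sum, to the 75th percentile of active genes or to the median of 87 ribosomal protein genes. All 3 are computed from the library itself, so none can show a shared loss of RNA either. With the common sum all 70 values of single members stayed within 0.1 of the deposited ones, so that scaling adds little. In both lines the share of listed FPKM that lay in ribosomal protein genes was higher with THZ1, 13.7% to 17.7% over the A673 libraries and 19.0% to 29.7% over the SKNMC libraries, and its part in the members' values was not tested. Read depth is unknown. All 6 Ewing sarcoma markers looked for (CD99, NKX2-2, NR0B1, STEAP1, FLI1 and CCND1) were above 1 FPKM in every library, with a summed level of 1264 to 1494 FPKM in A673 and 642.8 to 981.6 FPKM in SKNMC. Of 5 markers of other cell types, none was above 1 FPKM in A673 and only PTPRC was in SKNMC, at 7.90 to 13.1 FPKM, while CD3E and KRT5 were listed at 0 throughout.

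The first sequence shown is the stretch of CDK7 that THZ1 is known for. The drug binds a cysteine that lies outside the kinase fold, and in the annotated coding sequence of 346 codons the last cysteine codon, TGT, is codon 312. The line gives 63 coding bases of GRCh37, chr5:68572409-68572471 on the plus strand, with that codon, at chr5:68572439-68572441, in capitals.
CDK7 coding window: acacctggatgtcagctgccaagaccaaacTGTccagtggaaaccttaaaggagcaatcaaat

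The promoters of all 10 members were found in the RefSeq table (GRCh38.p14), as 300-base windows from 250 bases before the start to 50 after it. The letters CGGAAG, the core of a site for ETS factors, the family that FLI1 belongs to, were present on either strand in 5 of 10 windows (CCNH, ERCC3, GTF2H1, GTF2H2 and GTF2H3), against 19.5% of 35097 promoter windows. CACGTG, an E-box that reads the same on both strands, was present in 2 (CDK7 and GTF2H1) against 7.25%. On either strand CCAAT was present in 2 (ERCC2 and GTF2H4) against 34.6%, and TATAAA, the TATA box, in 0 against 11.5%. Each member was read at its most upstream start only, while the background held every distinct start of every gene. The shares therefore do not compare like units. A match of letters is a description and not a binding site. The CDK7 promoter is shown because CDK7 had the lowest log2 fold change of the set at 200 nM in both lines. The line gives the 250 bases before its start, chr5:69234545-69234794 on the plus strand of GRCh38.p14, with the E-box in capitals.
CDK7 promoter: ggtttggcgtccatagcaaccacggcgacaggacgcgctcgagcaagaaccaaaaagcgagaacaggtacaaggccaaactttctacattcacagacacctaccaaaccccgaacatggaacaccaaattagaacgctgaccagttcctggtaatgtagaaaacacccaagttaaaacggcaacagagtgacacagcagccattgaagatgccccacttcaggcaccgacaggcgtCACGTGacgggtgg

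The promoters of GTF2H2 and of GTF2H2C, a near-identical copy also on chromosome 5, are shown because both genes followed the same course over the libraries and can share reads. The 220 bases of GTF2H2, chr5:71067707-71067926 on the minus strand, and of GTF2H2C, chr5:69559971-69560190 on the plus strand (both GRCh38.p14), differed at 1 base, in capitals, an identity of 99.5%.
GTF2H2 promoter: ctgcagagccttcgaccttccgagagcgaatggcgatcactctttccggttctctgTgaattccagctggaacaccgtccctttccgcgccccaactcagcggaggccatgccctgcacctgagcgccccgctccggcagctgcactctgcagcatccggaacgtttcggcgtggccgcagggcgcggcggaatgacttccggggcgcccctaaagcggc
GTF2H2C promoter: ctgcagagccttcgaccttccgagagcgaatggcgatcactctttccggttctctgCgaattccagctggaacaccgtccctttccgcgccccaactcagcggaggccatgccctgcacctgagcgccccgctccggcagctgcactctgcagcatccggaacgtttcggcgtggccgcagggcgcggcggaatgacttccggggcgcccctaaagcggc

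With DMSO the subunits were not present at equal levels. In A673 the members spanned 2.67 to 46.4 FPKM, from GTF2H5 to MNAT1, and in SKNMC they spanned 5.02 to 44.8 FPKM, from GTF2H5 to GTF2H1. The order in A673 was MNAT1, GTF2H1, CDK7, CCNH, ERCC3, ERCC2, GTF2H3, GTF2H4, GTF2H2 and GTF2H5. In SKNMC it was GTF2H1, MNAT1, GTF2H3, CDK7, ERCC3, CCNH, ERCC2, GTF2H4, GTF2H2 and GTF2H5. GTF2H4, GTF2H2 and GTF2H5 thus held the 3 lowest places in both lines. Neighbours in these orders cannot be told apart without replicates. GTF2H2 and its copy GTF2H2C added together were at 24.7 FPKM in A673 and 24.0 FPKM in SKNMC. How reads were split between them was not tested, so the place of GTF2H2 is uncertain.

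**Figure D1:**
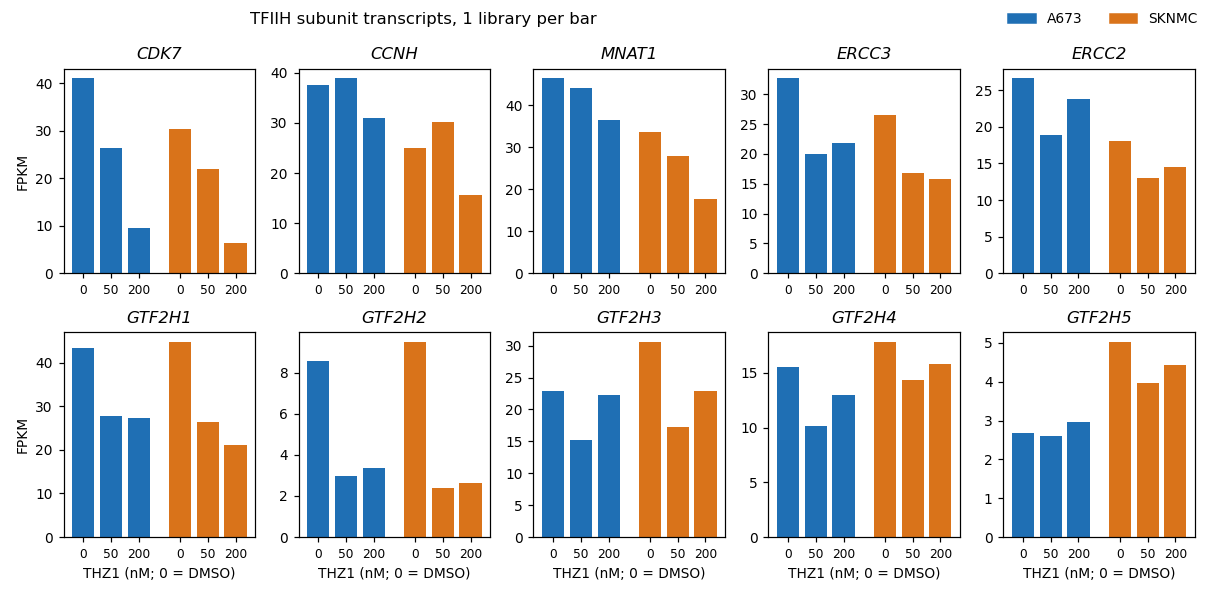
Expression of the 10 subunits in FPKM (vertical axes, a separate scale for each gene) in the DMSO (0), 50 nM and 200 nM THZ1 libraries of A673 and SKNMC, with 1 library per bar and no error bar. CDK7 stepped down at each dose in both lines, to 9.57 FPKM in A673 and 6.33 FPKM in SKNMC, while GTF2H2 was at its lowest level at 50 nM in both.

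CDK7 (ENSG00000134058; hg19 chr5:68530668-68573250, plus strand), the catalytic subunit, showed the lowest log2 fold change of the 10 members at 200 nM in both lines. The A673 libraries gave 41.1 FPKM with DMSO, 26.4 FPKM at 50 nM and 9.57 FPKM at 200 nM. The SKNMC libraries gave 30.4, 22.0 and 6.33 FPKM in the same order. The transcript was thus highest with DMSO, intermediate at 50 nM and lowest at 200 nM in both lines. At 50 nM it kept 64.2% of its DMSO level in A673 and 72.2% in SKNMC, and at 200 nM 23.3% and 20.8%. Its log2 fold changes of -0.62 and -1.99 in A673 and -0.45 and -2.10 in SKNMC were negative as deposited and under each of the 3 other scalings tried. At 50 nM CDK7 sat among the bulk of the active genes, with 30.1% of them lower in A673 and 41.4% in SKNMC. At 200 nM it lay near the low end, with 4.75% of active genes lower in A673 and 2.85% in SKNMC.

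CCNH (ENSG00000134480; chr5:86687311-86708836, minus strand) encodes cyclin H, the regulatory partner of CDK7. In the same order its level was 37.5, 38.9 and 30.9 FPKM in A673 and 25.1, 30.2 and 15.7 FPKM in SKNMC. In both lines the 50 nM library held the highest level and the 200 nM library the lowest. At 50 nM its log2 fold changes were 0.053 in A673 and 0.26 in SKNMC, the highest of the members in each, but both turned negative when libraries were scaled to their ribosomal protein genes. At 200 nM they were -0.27, which turned positive under 75th percentile scaling, and -0.64, which stayed negative under all scalings. CCNH overlaps RASA1 on the opposite strand over 438 bases, and whether the counting used strand is not stated, so reads of the 2 genes may be mixed there. RASA1 itself was lower with THZ1 in all 4 comparisons, with log2 fold changes of -0.64 and -1.21 in A673 and -0.19 and -1.05 in SKNMC.

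MNAT1 (ENSG00000020426; chr14:61201460-61436671, plus strand) encodes MAT1, which holds CDK7 and cyclin H together and tethers them to the core. At 235 kb it is the longest member. Its level was 46.4, 44.1 and 36.5 FPKM in A673 and 33.6, 27.9 and 17.8 FPKM in SKNMC. The levels ran downward with dose in both lines, with wider steps in SKNMC. MNAT1 had log2 fold changes of -0.071 and -0.34 in A673 and -0.26 and -0.88 in SKNMC, and all but the last turned positive under 75th percentile scaling. For scale, active genes spanning 100 kb and over had medians of -0.098 and -0.35 in A673 and -0.15 and -0.43 in SKNMC.

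Since the partners of CDK7 kept more of their level, the balance within the kinase module differed between libraries. These ratios are taken within a library and do not depend on how libraries are scaled. From DMSO to the high dose, the ratio of CDK7 to CCNH was 1.10, 0.678 and 0.310 in A673 and 1.21, 0.727 and 0.403 in SKNMC. The ratio of CDK7 to MNAT1 was 0.885, 0.598 and 0.262 in A673 and 0.906, 0.788 and 0.356 in SKNMC. Both ratios stepped down at each dose in both lines. CDK7 made up 32.9%, 24.1% and 12.4% of the summed FPKM of the kinase subunits in A673 and 34.1%, 27.4% and 15.9% in SKNMC. The summed kinase subunits against the summed core subunits followed another course, 0.821, 1.12 and 0.672 in A673 and 0.585, 0.850 and 0.410 in SKNMC. This ratio was highest at 50 nM and lowest at 200 nM in both lines.

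**Figure D2:**
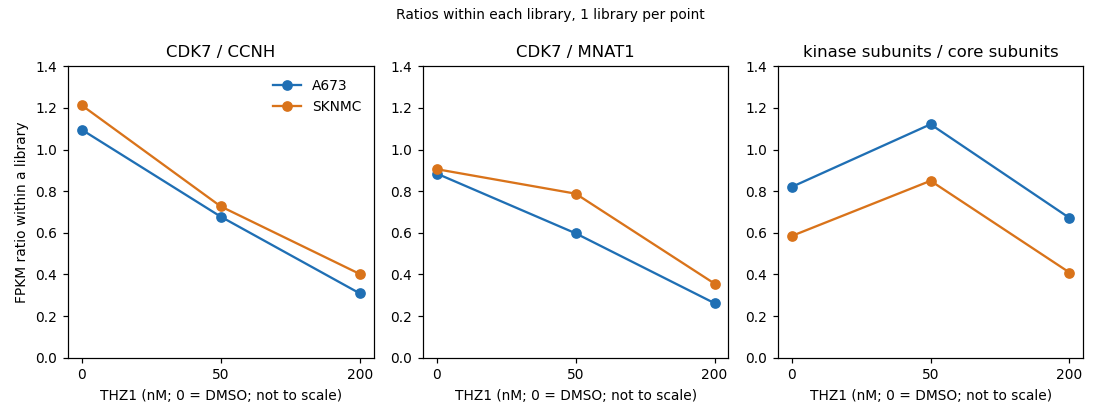
FPKM ratios within each library (vertical axis) against THZ1 dose (horizontal axis, not to scale) for CDK7 over CCNH, CDK7 over MNAT1 and the 3 kinase subunits over the 7 core subunits, 1 library per point. The first 2 ratios step down with dose in A673 and SKNMC, and the last peaks at 50 nM, at 1.12 in A673 and 0.850 in SKNMC.

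ERCC3 (ENSG00000163161; chr2:128014866-128051752, minus strand) encodes XPB, the translocase that opens promoter DNA. Its level was 32.7, 20.0 and 21.8 FPKM in A673 and 26.6, 16.8 and 15.9 FPKM in SKNMC. Both doses lay below DMSO and close to each other in each line. These gave log2 fold changes of -0.68 and -0.56 in A673 and -0.63 and -0.71 in SKNMC, negative under every scaling. ERCC2 (ENSG00000104884; chr19:45853095-45874176, minus strand) encodes XPD, the helicase that repair depends on and the subunit that links the kinase module to the core. Its level was 26.6, 18.9 and 23.9 FPKM in A673 and 18.1, 12.9 and 14.5 FPKM in SKNMC. The lowest library was that of 50 nM in both lines. The log2 fold changes were -0.48 and -0.45 at 50 nM, negative under every scaling, and -0.15 and -0.30 at 200 nM, which turned positive under 75th percentile scaling. ERCC2 overlaps KLC3 on the opposite strand over 1684 bases, but KLC3 stood between 0.356 and 0.904 FPKM in all libraries.

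GTF2H1 (ENSG00000110768; chr11:18343842-18388591, plus strand), a core subunit through which TFIIH meets other initiation and repair factors, was at 43.3, 27.8 and 27.4 FPKM in A673 and 44.8, 26.4 and 21.2 FPKM in SKNMC. It was lower than DMSO at both doses, with log2 fold changes of -0.62 and -0.64 in A673 and -0.74 and -1.05 in SKNMC, negative under every scaling. In A673 the 2 doses lay side by side, and in SKNMC the higher dose was the lower.

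GTF2H2 (ENSG00000145736; chr5:70330784-70363516, minus strand), which encodes the subunit that binds XPD and stimulates its helicase, was the member with the lowest log2 fold change at 50 nM. From DMSO to the high dose its level was 8.56, 2.96 and 3.36 FPKM in A673 and 9.50, 2.37 and 2.64 FPKM in SKNMC. The 4 treated libraries lay together and well under the 2 DMSO libraries. GTF2H2 had log2 fold changes of -1.27 and -1.13 in A673 and -1.64 and -1.53 in SKNMC, negative under every scaling. Of the active genes, 9.42% were lower than GTF2H2 at 50 nM in A673 and 21.3% at 200 nM. The shares in SKNMC were 3.56% and 10.8%.

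The value of GTF2H2 is uncertain as that of a single gene. Its coding sequence and that of GTF2H2C (hg19 chr5:68856035-68890550, plus strand) have the same length of 1185 bases and differ at 4 of them, and 67.2% of the 100-base windows along it are identical in both, so reads of this length can often not be assigned. GTF2H2C was at 16.1, 4.64 and 5.72 FPKM in A673 and 14.5, 3.51 and 4.16 FPKM in SKNMC. The copy had the same course as GTF2H2, and its ratio to GTF2H2 stayed between 1.48 and 1.89 in the 6 libraries. Other copies were not analysed here. How the reads were split between the copies was not tested, but GTF2H2 and GTF2H2C added together, at 24.7, 7.60 and 9.08 FPKM in A673 and 24.0, 5.88 and 6.80 FPKM in SKNMC, were also lower with THZ1 in each line.

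GTF2H3 (ENSG00000111358; chr12:124118375-124147153, plus strand), the partner of GTF2H2 in the ring of the core, was at 22.9, 15.2 and 22.3 FPKM in A673 and 30.6, 17.3 and 22.9 FPKM in SKNMC. Its lowest library was that of 50 nM in both lines. Its log2 fold changes were -0.56 and -0.79 at 50 nM, negative under every scaling, and -0.036 and -0.40 at 200 nM, which turned positive under 75th percentile scaling. GTF2H4 (ENSG00000213780; chr6:30875961-30881883, plus strand), which anchors XPB in the core, was at 15.6, 10.1 and 13.0 FPKM in A673 and 17.8, 14.4 and 15.8 FPKM in SKNMC. It too was lowest at 50 nM. Its log2 fold changes were -0.57 and -0.25 in A673 and -0.29 and -0.17 in SKNMC, with both 200 nM values turning positive under 75th percentile scaling. In the deposited coordinates 5865 bases of GTF2H4 lie within the span of VARS2 on the same strand, so reads of the 2 genes could not be told apart by strand. VARS2 was at 9.91, 10.6 and 12.2 FPKM in A673 and 6.57, 6.79 and 8.53 FPKM in SKNMC, highest at 200 nM in both.

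GTF2H5 (ENSG00000272047; chr6:158589384-158620376, plus strand) encodes TTDA, a small protein that stabilises TFIIH. Its level was 2.67, 2.59 and 2.97 FPKM in A673 and 5.02, 3.98 and 4.42 FPKM in SKNMC. In A673 the 3 libraries hardly differed, and in SKNMC both treated libraries were lower than DMSO. In log2 fold change this came to -0.029 and 0.11 in A673 and -0.27 and -0.15 in SKNMC, of which only the 50 nM value in SKNMC kept its sign under every scaling. At such low levels the added 1 FPKM shrinks a change.

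Against DMSO, 1 of 10 members was lower by at least 2-fold at 50 nM in A673, GTF2H2, where 15.9% of active genes were. At 200 nM in A673 it was 2 of 10, CDK7 and GTF2H2, where 25.3% of active genes were. In SKNMC it was 1 of 10 at 50 nM, GTF2H2 again, against 15.8%. At 200 nM in SKNMC it was 3 of 10, CDK7, GTF2H2 and GTF2H1, against 27.3%. Under 75th percentile scaling GTF2H1 was at -0.50 there, which left 2 of 10 members, against 13.4% of active genes. These shares of the members are near the background of the active genes. No member was higher by at least 2-fold in any of the 4 comparisons, where 0.343%, 0.126%, 0.471% and 0.462% of active genes were, in the same order. With a 1.5-fold limit, 4 and 3 of 10 members were lower in A673 at the low and high dose, against 31.8% and 41.1% of active genes, and 4 and 6 of 10 in SKNMC, against 33.5% and 48.0%.

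The median over the 10 members was a log2 fold change of -0.57 at the low dose and -0.30 at the high dose in A673, beside -0.27 and -0.40 over the active genes. Their median in SKNMC was -0.45 and -0.68, beside -0.32 and -0.55. The members' median was thus 0.30 below that of the active genes at 50 nM in A673, 0.092 above it at 200 nM in A673, and 0.13 below it at both doses in SKNMC. Both comparisons of a line share its DMSO library, so an error in that library would enter both doses alike.

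Over both lines together, several members passed a test for a shared change. The limma fit held the 6 libraries, with terms for line and dose, and its error is the difference in response between the lines, not the spread between cultures. It had 2 residual degrees of freedom per gene and borrowed its variance from the 10574 genes active in both lines, over which p-values were adjusted by the Benjamini-Hochberg method. It was chosen after seeing the data. At the low dose, 7 of 10 members were lower than with DMSO at an adjusted p under 0.05, where 38.5% of all genes were. GTF2H2 had the largest mean change, -1.46 on the log2 scale (SE 0.184, limma adjusted p = 9.4e-05). CDK7 was at -0.54 (SE 0.156, limma adjusted p = 0.0159). The others lower were GTF2H1, GTF2H3, ERCC3, ERCC2 and GTF2H4, between -0.68 and -0.43. MNAT1, CCNH and GTF2H5 did not pass, at -0.17, 0.16 and -0.15.

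At the high dose, 6 of 10 members were lower than with DMSO, where 52.7% of all genes were. CDK7 was at -2.05 (SE 0.156, limma adjusted p = 2.06e-06) and GTF2H2 at -1.33 (SE 0.184, limma adjusted p = 7.85e-05). GTF2H1, ERCC3, MNAT1 and CCNH followed, at -0.84, -0.64, -0.61 and -0.46. ERCC2, GTF2H3, GTF2H4 and GTF2H5 did not pass, at -0.22, -0.22, -0.21 and -0.019. Each member that passed was lower in 2 of 2 lines at that dose. The test reads the mean change of the 2 lines, so their shared sign is largely implied by passing. With the deposited values no member passed as higher at either dose. Between the doses, 2 of 10 were lower at the higher one, where 23.2% of all genes were. These were CDK7, at -1.51 (SE 0.156, limma adjusted p = 7.88e-05), and CCNH, at -0.61 (SE 0.166, limma adjusted p = 0.0179). MNAT1 was at -0.44 with a limma adjusted p of 0.0616. GTF2H3 went the other way, at 0.46 with a limma adjusted p of 0.0519.

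Part of these calls depended on the scaling or on a single library. With a common sum 6 of 10 members were lower at the low dose, against 37.9% of all genes. GTF2H4 then did not pass, at -0.42 with a limma adjusted p of 0.0516. Under the common sum GTF2H3 passed as higher at 200 nM than at 50 nM, at 0.45 with a limma adjusted p of 0.0467. With 75th percentile scaling 4 of 10 members were lower at the low dose, against 25.1% of all genes, and CDK7 was no longer among them, at -0.27 with a limma adjusted p of 0.129. At the high dose it was 3 of 10, CDK7, GTF2H2 and GTF2H1, against 31.9%. Under that scaling CCNH was higher at 50 nM than with DMSO, at 0.42 with a limma adjusted p of 0.0361. GTF2H3 and ERCC2 were then higher at 200 nM than at 50 nM, at 0.65 and 0.43. Ribosomal protein scaling went the other way. It left 7 of 10 members lower at the low dose, against 56.0% of all genes, and 9 at the high dose, against 76.5%. ERCC2, GTF2H3 and GTF2H4 then passed at 200 nM, at -0.66, -0.66 and -0.63. Between the doses 3 of 10 were lower, CDK7, CCNH and MNAT1, against 29.1%. Leaving out the 50 nM library of A673 or of SKNMC left fewer members lower at the low dose. The share of all genes that were lower was also smaller, but it shrank less than that of the members. CDK7 was then at -0.43 and -0.65 at 50 nM and did not pass. Nor did it without the DMSO library of A673 or of SKNMC, at -0.52 and -0.55. CCNH did not pass at 200 nM against 50 nM without the 50 nM or the 200 nM library of SKNMC, at -0.42 and -0.37. The calls of CDK7 at 200 nM, against DMSO and against 50 nM, and of GTF2H2 at both doses held under each of the 3 scalings. With each library left out in turn, CDK7 at 200 nM lay between -2.14 and -1.95 against DMSO and between -1.62 and -1.40 against 50 nM. GTF2H2 lay between -1.65 and -1.26 at 50 nM and between -1.52 and -1.14 at 200 nM. Leaving out a library at a dose outside the comparison cannot change its estimate, so these are not 6 separate checks.

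**Figure D3:**
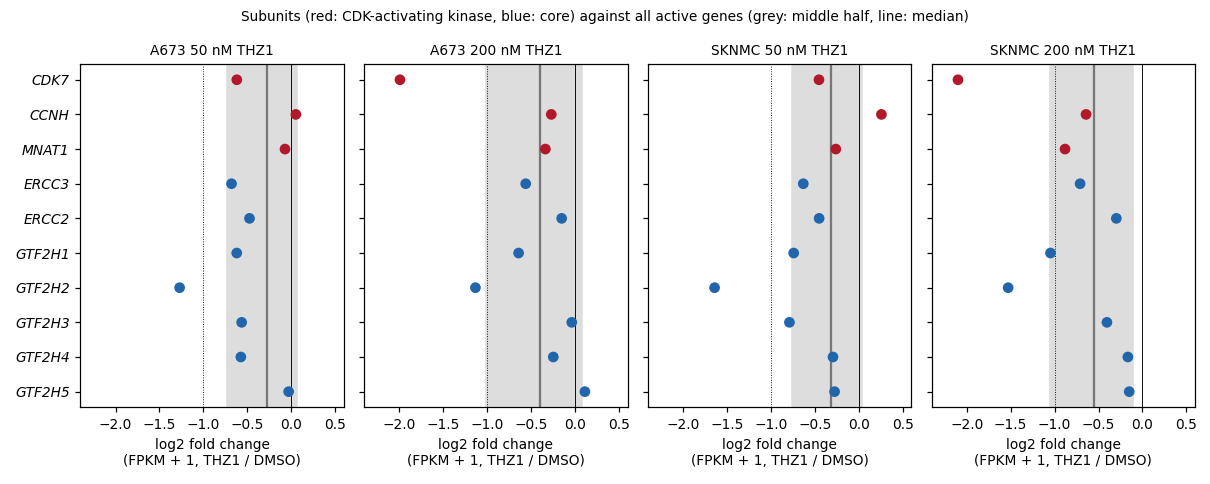
Log2 fold change of each subunit against the DMSO library of its line (horizontal axis, FPKM + 1), in red for the kinase subunits and blue for the core subunits, with the middle 50% of all active genes in grey, their median as a grey line and a 2-fold decrease as a dotted line. CDK7 stands apart at 200 nM, at -1.99 in A673 and -2.10 in SKNMC, and GTF2H2 at 50 nM, at -1.27 and -1.64.

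The 2 doses can be compared without the DMSO libraries. At 200 nM against 50 nM, CDK7 was lower by at least 2-fold in both lines, with log2 fold changes of -1.37 in A673 and -1.65 in SKNMC. It was the only such member, 1 of 10 in each line, where 7.44% of active genes in A673 and 8.39% in SKNMC were lower by that much. Only 2.78% and 1.28% of active genes were lower than CDK7. CCNH was at -0.32 and -0.90 and MNAT1 at -0.27 and -0.62. All 3 kinase subunits were thus lower at the higher dose in both lines, under every scaling. This step was not particular to them. Of the 9 other transcriptional kinases and cyclins described below, 6 were lower and 3 higher in A673, and 8 and 1 in SKNMC. Their median was -0.93 and -0.71, and the cyclin gene CCNT1 was at -2.15 and -2.23, below CDK7. Among 8 other initiation factors 6 were lower and 2 higher in each line, with GTF2B at -1.69 and -2.07. With the deposited values 51.7% of active genes in A673 and 62.0% in SKNMC were also lower. Lower than CCNH and MNAT1 were 29.4% and 32.3% of active genes in A673, and 10.7% and 20.5% in SKNMC.

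The core subunits did not follow. Of the 7, 1 was lower at 200 nM than at 50 nM in A673 (GTF2H1, at -0.021) and 2 in SKNMC (GTF2H1 at -0.31 and ERCC3 at -0.079), where 51.7% and 62.0% of active genes were lower. GTF2H3 was the highest, at 0.53 in A673 and 0.38 in SKNMC, and stayed positive under every scaling. ERCC2 was at 0.32 and 0.15, GTF2H4 at 0.33 and 0.13, GTF2H2 at 0.14 and 0.11 and GTF2H5 at 0.14 and 0.12. These were positive under every scaling in A673, whereas in SKNMC all 4 turned negative with ribosomal protein scaling. ERCC3 changed sign with the scaling in both lines, and GTF2H1 did so in A673.

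**Figure D4:**
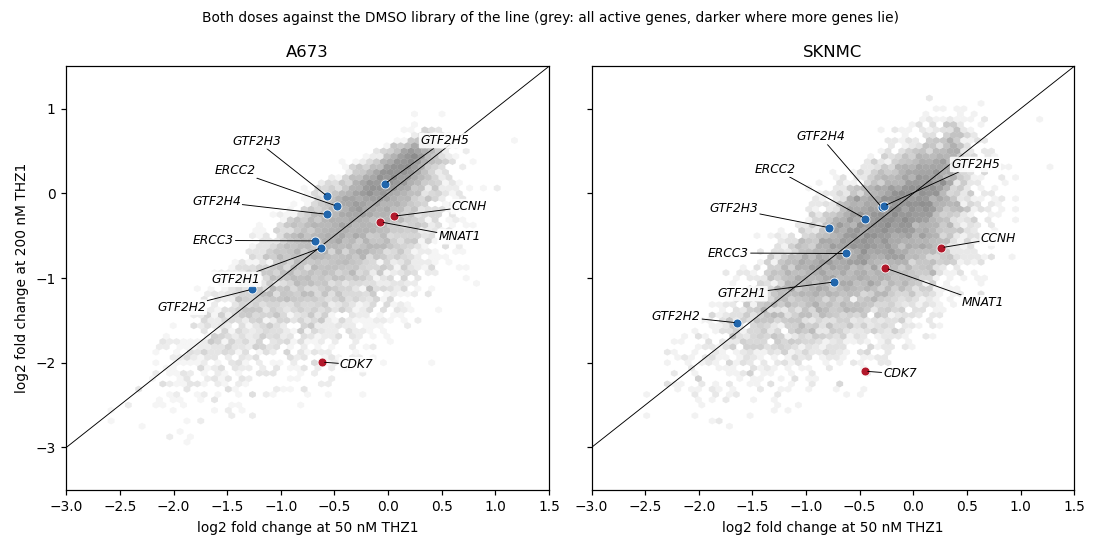
Log2 fold change at 200 nM THZ1 (vertical axis) against that at 50 nM (horizontal axis) in A673 and SKNMC, both against the DMSO library of the line, with kinase subunits in red, core subunits in blue, active genes in grey and the line of equal change. CDK7, CCNH and MNAT1 lie below the line in both panels, with CDK7 the farthest at -1.37 in A673 and -1.65 in SKNMC, while most core subunits lie on or above it. Both axes share a DMSO library.

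Between the lines with DMSO, the 3 kinase subunits, ERCC3 and ERCC2 were higher in A673, under every scaling. The log2 ratio of A673 to SKNMC was 0.42 for CDK7, 0.56 for CCNH, 0.45 for MNAT1, 0.29 for ERCC3 and 0.53 for ERCC2. GTF2H1, GTF2H2, GTF2H3 and GTF2H4 were lower in A673, at -0.047, -0.14, -0.40 and -0.18, but these 4 changed sign with ribosomal protein scaling. GTF2H5 was lower in A673 under every scaling, at -0.72. None of the 10 differed by 2-fold or more, where 8.96% of 10574 genes active in both lines were lower in A673 by that much and 6.93% were higher. Each line gave 1 library, so the line and its library cannot be told apart.

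Genes with a course most like that of a member were sought among 5838 protein-coding genes above 5 FPKM in all 6 libraries, by the Euclidean distance over the 4 log2 fold changes against DMSO. The nearest to CDK7 were PRCC at 0.201, TBPL1 at 0.257 and BRIX1 at 0.284, where the median gene lay at 2.63. PRCC had log2 fold changes of -0.47 and -1.87 in A673 and -0.42 and -2.12 in SKNMC, and so stepped down with dose as CDK7 did. The nearest to ERCC3 were UGDH at 0.0696, UBR7 at 0.141 and TROAP at 0.145, with the median gene at 1.17.

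The partners of TFIIH were described from 4 lists. Of 8 other initiation factors, 1 passed a 2-fold decrease at the low dose and 4 at the high dose in each line, where 15.9% and 25.3% of active genes were lower by that much in A673 and 15.8% and 27.3% in SKNMC. This list's median log2 fold change at 200 nM was -0.96 in A673 and -0.88 in SKNMC, against -0.40 and -0.55 over active genes. GTF2E1, a subunit of TFIIE, the factor that recruits TFIIH to the promoter, was at 9.10, 1.06 and 0.508 FPKM in A673 and 10.7, 1.45 and 0.825 FPKM in SKNMC. It had the lowest values of the list and, as GTF2H2, was low at 50 nM already. GTF2B, which encodes TFIIB, the factor that places the polymerase at the start site, was at 25.6, 31.7 and 9.11 FPKM in A673 and 32.0, 47.4 and 10.5 FPKM in SKNMC. Its level was highest at 50 nM and lowest at 200 nM in both lines, with log2 fold changes at 200 nM of -1.40 and -1.52. TBP, which binds the TATA box, was at -1.82 and -1.83 at 200 nM, and GTF2A1, a subunit of TFIIA, at -1.22 and -1.04. GTF2F2, a subunit of TFIIF, had the highest mean of the list, at -0.11 and -0.73.

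Of 15 repair partners, 1 passed a 2-fold decrease at the low dose and 4 at the high dose in A673, and 3 and 4 did in SKNMC, beside the same shares of active genes. The list's median at 200 nM was -0.19 in A673 and -0.47 in SKNMC, beside -0.40 and -0.55 over active genes. XPC, the sensor that calls TFIIH to a lesion, was at 17.6, 9.54 and 6.15 FPKM in A673 and 13.0, 5.79 and 4.15 FPKM in SKNMC, downward with dose in both. ERCC4, a subunit of the nuclease that cuts upstream of the lesion, had the lowest mean, with log2 fold changes at 200 nM of -1.92 and -1.67. ERCC5, the nuclease that cuts downstream, was at -1.22 and -1.24. CETN2, a partner of XPC, had the highest mean, at 0.51 and 0.23.

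Of 9 other kinases and cyclins that act in transcription, none was lower by at least 2-fold at 50 nM in either line, where 15.9% and 15.8% of active genes were. At 200 nM 4 were in A673 and 3 in SKNMC, against 25.3% and 27.3%. The list's median at 200 nM was -0.87 in A673 and -0.82 in SKNMC, beside -0.40 and -0.55 over active genes. CCNT1, the cyclin of the elongation kinase CDK9, was at 12.1, 17.3 and 3.12 FPKM in A673 and 16.6, 23.4 and 4.20 FPKM in SKNMC, again highest at 50 nM. Its relative CCNT2 had the highest mean of the list and was at 1.12 at 50 nM in SKNMC, the only value of the list past 2-fold upward. CDK8, the kinase of Mediator, was at -1.32 and -1.33 at 200 nM. CDK12, an elongation kinase that THZ1 is also known to bind, was at -1.59 and -1.07. At 200 nM CDK7 was lower than each of these, at -1.99 and -2.10.

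Of the 4 cell cycle kinases that CDK7 phosphorylates, none was lower by at least 2-fold at 50 nM, beside 15.9% and 15.8% of active genes, and 1 was at 200 nM in A673 and 2 in SKNMC, beside 25.3% and 27.3%. CDK1, which drives mitosis, was at 170.8, 113.8 and 74.7 FPKM in A673 and 79.0, 62.5 and 38.7 FPKM in SKNMC. It stepped down with dose in both lines and was the lowest of the list by its mean. CDK2, which acts at the entry into replication, had the highest mean, at -0.17 and -0.29 at 200 nM.

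**Figure D5:**
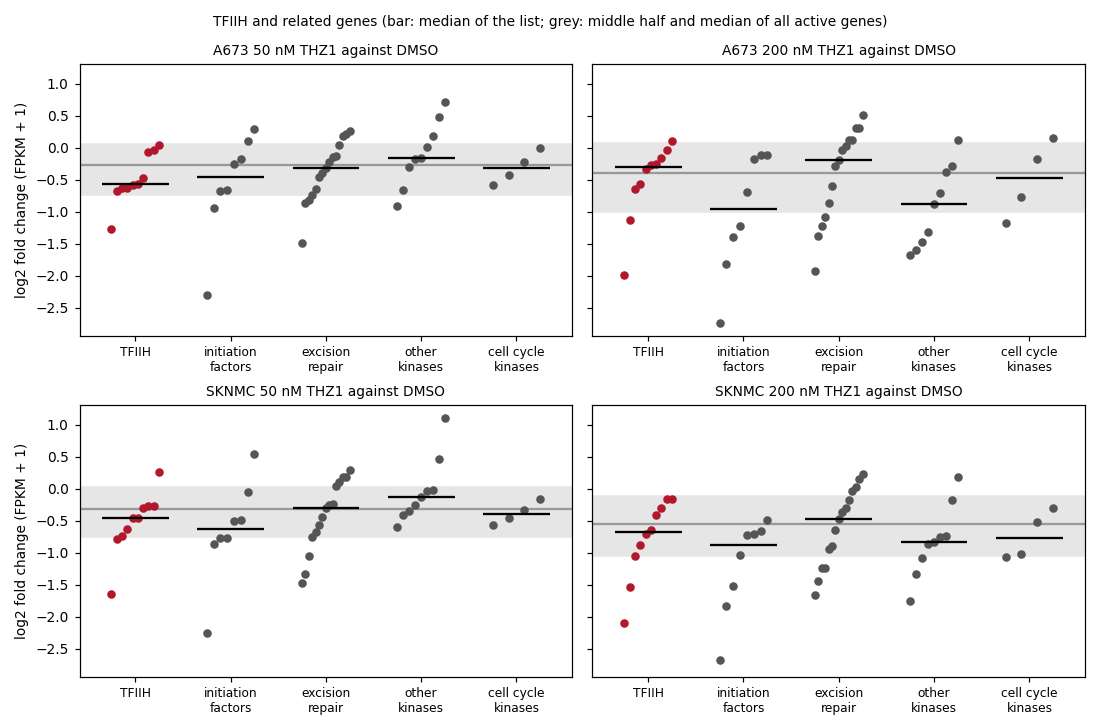
Log2 fold change against DMSO (vertical axis, FPKM + 1) of the 10 TFIIH genes in red and of 8 other initiation factors, 15 excision repair partners, 9 other kinases and cyclins of transcription and 4 cell cycle kinases in grey, with 1 point per gene sorted within its list, the median of each list as a black bar and the middle 50% and median of all active genes as a grey band and line. At 200 nM the initiation factors reach lowest, to -2.74 in A673 and -2.68 in SKNMC, and CDK7 is the lowest red point at -1.99 and -2.10.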

How the data were processed

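RNA of 6 samples (A673 and SKNMC, each with DMSO, 50 nM or 200 nM THZ1 for 6 h) was analysed, with groups taken from the labels, in which titles spell SKNMC in another way. Libraries were of the TruSeq kind and were read on a HiSeq2000 as 100-bp pairs. The authors used STAR with the Ensembl 75 annotation to align them to hg19 and deposited FPKM values; their methods name StringTie for the FPKM, while the submitters' processing notes name Cufflinks, and versions are not given in the sources used here. The table calls its values average expression, whereas the labels give 1 library per condition. It lists 20311 protein-coding and 7109 lincRNA genes. Its 4 columns of the authors' log2 fold changes were not used. EEF1A1 is listed at 0 in both SKNMC libraries with THZ1, so a 0 means only listed at 0.

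From FPKM, log2((FPKM + 1) / (FPKM + 1)) was computed with Python 3.11.15, pandas 2.3.3 and NumPy 2.4.6, and figures were drawn with Matplotlib 3.10.9. Within a line a change of at least 2-fold was counted. Over both lines, log2(FPKM + 1) was fitted with limma 3.58.1 in R 4.3.3 with line and dose as terms, a mean-variance trend and Benjamini-Hochberg adjustment. The steps were tested on simulated data. Depth is not known. A rough guess from the steps of low values gave the THZ1 libraries 88.9% to 96.6% of the depth of DMSO, but only 1.99% to 2.91% of low genes lay at that step. Alternatives were pseudocounts of 0.1 and 0.01, other filters, a common sum, scaling to the 75th percentile of active genes or to the median of 87 ribosomal protein genes, GTF2H2 with its copy added, a 1.5-fold threshold, protein-coding genes alone and, chosen after seeing the data, the limma fit, leaving out each library from it, and leaving out GTF2H2. Deposited starts are 1 below those of GENCODE release 44 for 54.6% of 26108 matched genes, so 1 was added. Promoters came from RefSeq, coding sequences from GENCODE on GRCh37.

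Named genes were all 10 members, the copies of GTF2H2, any gene of the 4 related lists past 2-fold in both lines with the highest and lowest of each list by mean, and the 3 genes nearest to CDK7 and to ERCC3; genes that overlap a member, cell type markers and EEF1A1 were named as checks. CCNT2 at 50 nM in SKNMC was named after seeing its value. Members and lists were chosen with earlier results of these data known.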

Additional observations from a re-analysis of the deposited data

Results flagged for a closer look

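The sign of 2 members' changes differed between the lines. GTF2H5 at 200 nM against DMSO was at 0.11 on the log2 scale in A673 and -0.15 in SKNMC, a difference of 0.26. ERCC3 at 200 nM against 50 nM was at 0.12 in A673 and -0.079 in SKNMC, a difference of 0.20. With 1 library per condition neither difference was tested, and in both genes the sign within a line changed with the scaling of the libraries.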

How the results depend on the processing

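Scaling to the 75th percentile moved the median of active genes by 0.22 and 0.32 in A673 and by 0.25 and 0.48 in SKNMC at 50 and 200 nM, and ribosomal protein scaling by -0.19 and -0.29 and by -0.28 and -0.44, so the sign of a small change depends on the scaling. Over 5 settings that can alter a single member's value, scaling to the 75th percentile moved 69 of 70 values by over 0.1 on the log2 scale, ribosomal protein scaling 69, a common sum 0, and pseudocounts of 0.1 and 0.01 moved 7 and 8. The number of members lower by at least 2-fold became 3 at 50 nM and 6 at 200 nM in SKNMC with ribosomal protein scaling, where 25.4% and 49.5% of active genes were, and 1 at 200 nM in A673 with 75th percentile scaling, where 17.3% were. With a 1.5-fold threshold it was 4 at 50 nM in each line and 6 at 200 nM in SKNMC, where 31.8%, 33.5% and 48.0% of active genes were lower by that much. Without GTF2H2 it was 0 at 50 nM in both lines, beside 15.9% of active genes in A673 and 15.8% in SKNMC. At 200 nM in A673 it was 1, beside 25.3%. With no filter the median of all genes is 0, since many genes are listed at 0, and the members' relative median became -0.57 and -0.30 in A673, -0.45 and -0.68 in SKNMC and 0.017 for SKNMC at 200 against 50 nM. For A673 against SKNMC with DMSO the relative median of 0.17 became 0.29 with active genes above 5 FPKM and 0.34 without GTF2H2. The cause of the other shifts was not tested. In the limma fit under 75th percentile scaling, 4 members were lower than with DMSO at 50 nM and 3 at 200 nM. Of all genes, 25.1% and 31.9% were. Ribosomal protein scaling gave 7 and 9 members, where 56.0% and 76.5% of all genes were lower. With each library left out in turn, 1 residual degree of freedom was left. At 50 nM fewer members then passed without a DMSO or a 50 nM library of either line. At 200 nM fewer passed without a 50 nM library of either line, the SKNMC DMSO or the SKNMC 200 nM library. At 200 against 50 nM fewer passed without either SKNMC library with THZ1. The share of all genes that were lower was also smaller in each of these fits, but not always in step with the members. At 50 nM without the A673 DMSO library this share hardly differed from that of the full fit. Since each line has 1 library per condition, no replicate culture could be left out. Depth is unknown, so counting error has no interval here.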
